A study of Bos taurus with 2 samples.

Results

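The 37 genes of the HOX clusters were followed by cluster and paralogue number in cells of day 25 bovine embryos. They were taken as every row of the count table whose symbol was HOXA, HOXB, HOXC or HOXD followed by a number, which gave 37 of 17846 symbols: 11 of cluster A, 9 of cluster B, 9 of cluster C and 8 of cluster D. All 37 had at least 1 unique molecular identifier (UMI, the tag that counts each captured RNA molecule once) in the kept cells. Of these, 17 had 20 or more UMIs and 20 had fewer, and the 3294 HOX UMIs came from 4356 cells.

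HOX genes encode homeodomain transcription factors that give cells their position along the head-to-tail axis. Within a cluster, genes with low paralogue numbers are known to be switched on earlier and to reach further towards the head, and genes with higher numbers are known to be restricted to ever more posterior tissue. Paralogues 1 to 4 are known for patterning the hindbrain and the pharyngeal arches, paralogues 4 to 9 for the neck and trunk, and paralogues 10 to 13 for the hindmost trunk, limb tips, tail and urogenital tract.

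The embryos were chimeras recovered by flushing the uterus at day 25, and each carried bovine embryonic stem cells (bESC) besides its host cells; the labels give 1 group with replicates 1 and 2. They were minced, dissociated with papain and DNase and sorted, with a gate not given in the sources used here, and libraries were made with a 10x Genomics 3′ v3.1 kit. Host and donor-derived cells were not separated here. Nothing in the labels says that both samples came from separate embryos, so p-values measure only the spread between these samples, which may be technical, and every comparison is between cell classes of the same suspensions. The kept cells held 11162815 UMIs in replicate 1 (1939 cells, median 4987) and 15384974 in replicate 2 (2417 cells, median 5713).

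Cells were divided into 4 classes by the presence of UMIs of gate genes. SOX2-positive progenitors, 766 and 1039 cells in replicates 1 and 2, had SOX2, a transcription factor of neural progenitors. Neurons, 410 and 475 cells, had at least 3 of TUBB3, DCX, ELAVL3, ELAVL4 and STMN2, with or without SOX2. Collagen VI-positive cells, 67 and 114, had COL6A1, COL6A2 or COL6A3 and neither of the other gates. The rest, 627 and 681 cells, met no gate, and 69 and 108 cells that met the collagen VI gate together with another were left out. Markers outside the gates followed the names in sum, but not in every gene. The sum of 8 neuronal markers was 3061 and 3230 CPM (counts per 1000000 UMIs of the class) in neurons against 935 and 907 CPM in progenitors, and 5 neural progenitor markers summed to 1242 and 1188 CPM in progenitors against 762 and 866 CPM in neurons. That sum is mostly NES (858 and 850 CPM against 386 and 436 CPM); PAX6 overlapped between the classes (147 and 106 CPM against 141 and 150 CPM) and FABP7 was lower in progenitors (64.0 and 66.6 CPM against 109 and 140 CPM). Collagen VI-positive cells held 19980 and 27700 CPM of a mesenchyme list, against 235 and 239 CPM in progenitors. Of that list, PRRX1 was lower in them (0 and 3.91 CPM against 15.1 and 21.2 CPM), and TWIST1 was close in replicate 1 (31.5 against 30.8 CPM). They also held 10228 and 13861 CPM of APOA1, an apolipoprotein of endoderm, so the class is called by its gate. Other endoderm genes did not follow APOA1. FOXA2 (48.1 and 37.2 CPM against 270 and 282 CPM in progenitors) and TTR (1.66 and 0.978 CPM against 16.2 and 50.3 CPM) were lower. FOXA1 and AFP had 0 CPM in the class, and CDX2 0 and 1.96 CPM. The rest was not free of neural RNA, with 819 and 681 CPM of the neural progenitor markers and 989 and 887 CPM of the neuronal markers. It also held 27271 and 64078 CPM of an erythroid list. Median depth differed as well: 5523.5 and 6513 UMIs per progenitor, 7273.5 and 8062 per neuron, 7078 and 8575 per collagen VI-positive cell, and 2977 and 2849 per cell of the rest.

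HOX RNA took different shapes in the classes. Progenitors and neurons held almost only paralogues 2 and 3, collagen VI-positive cells held mostly paralogues 4 to 9, and the rest held both. All levels are CPM of the UMIs summed over a class in 1 replicate, so cells with fewer HOX RNA molecules and fewer cells with any cannot be told apart in them. Because 3′ counting tags each transcript once, levels of different genes are set side by side without a length correction. The summed level of all 37 genes was 88.2 ± 3.38 CPM in progenitors, 166 ± 7.63 in neurons, 269 ± 63.8 in collagen VI-positive cells and 99.2 ± 0.695 in the rest (mean ± SD, n = 2 each). Between progenitors and the rest the order of these totals rests on close values (85.8 and 90.6 CPM against 99.7 and 98.7 CPM), whereas both replicates of neurons and of collagen VI-positive cells lay above both of those classes.

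Paralogues 1 to 3 supplied 94.7% and 93.7% of the HOX UMIs of progenitors in replicates 1 and 2 and 99.2% and 98.7% of those of neurons. They supplied 26.7% and 23.7% in collagen VI-positive cells and 67.2% and 52.7% in the rest. As levels, paralogues 1 to 3 stood at 83.1 ± 2.56 CPM in progenitors, 164 ± 7.05 in neurons, 67.0 ± 10.4 in collagen VI-positive cells and 59.5 ± 10.6 in the rest (mean ± SD, n = 2). Paralogues 4 to 9 stood at 4.11 ± 0.015 CPM in progenitors, 1.46 ± 0.627 in neurons, 200 ± 53.2 in collagen VI-positive cells and 37.1 ± 10.2 in the rest. Both replicates of collagen VI-positive cells (162 and 238 CPM) lay above every other class for paralogues 4 to 9, and both neuron values (159 and 169 CPM) lay above every other class for paralogues 1 to 3.

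**Figure D1:**
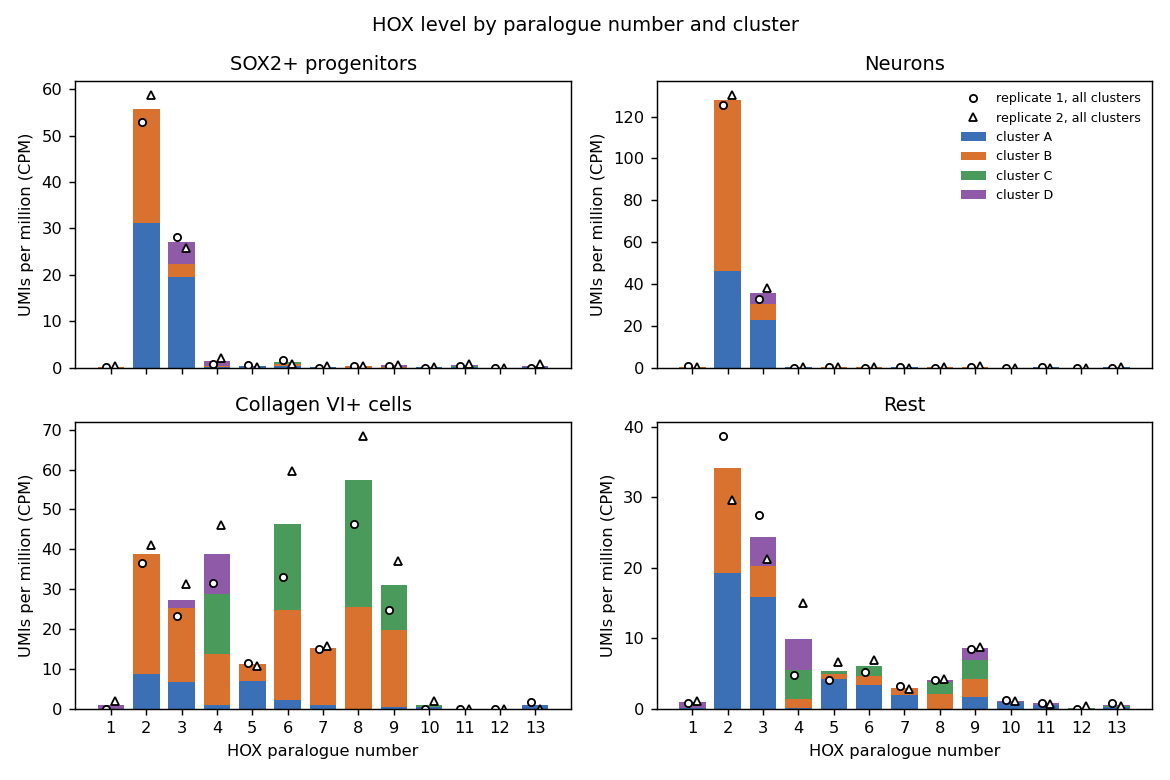
Level of HOX genes by paralogue number in 4 cell classes, in CPM (UMIs per 1000000 of the class; the y scale differs between panels). Bars stack the mean of both replicates by cluster, and open symbols give each replicate's total over clusters. Progenitors and neurons have bars at paralogues 2 and 3 with little beyond, while collagen VI-positive cells have bars from paralogue 2 to paralogue 9.

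The step between paralogues 3 and 4 was sharp in the neural classes. In clusters A, B and D these neighbours share annotated sequence in a RefSeq annotation of another assembly (ARS-UCD2.0). Counting could split reads between them, and its part in the step was not tested. In progenitors the level fell from 28.2 and 25.8 CPM for paralogue 3 to 0.863 and 1.99 CPM for paralogue 4, and in neurons from 32.8 and 38.3 CPM to 0 and 0.272 CPM, the latter from 1 UMI. Collagen VI-positive cells had no such step, with 27.2 ± 5.73 CPM for paralogue 3 and 38.7 ± 10.2 CPM for paralogue 4 (mean ± SD, n = 2), and the lower paralogue 4 value barely exceeded the higher paralogue 3 value (31.5 against 31.3 CPM). The highest level in each replicate was that of paralogue 8, at 46.4 and 68.5 CPM. It overlapped paralogue 6, and paralogues 6 (33.1 and 59.7 CPM), 4 (31.5 and 46.0 CPM), 2 (36.5 and 41.1 CPM) and 9 (24.9 and 37.2 CPM) overlapped each other, and paralogues 5 (11.6 and 10.8 CPM) and 7 (14.9 and 15.6 CPM) lay below all of them in both replicates.

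Position 1 was nearly empty: HOXB1, which is known to act early in the presumptive hindbrain, had 3 UMIs in all kept cells, and HOXD1 had 9. HOXB2 and HOXA2, which pattern hindbrain segments and, for HOXA2, the second pharyngeal arch, were the most abundant HOX genes, with 1009 and 826 UMIs. HOXA3, known for its part in thymus and parathyroid formation, had 498 UMIs, HOXB3 139 and HOXD3, a gene of the upper neck vertebrae, 123.

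HOXB2 had 100 and 194 UMIs in progenitors (21.6 and 27.5 CPM), 232 and 313 in neurons (78.5 and 85.1 CPM), 15 and 36 in collagen VI-positive cells (24.9 and 35.2 CPM) and 37 and 43 in the rest (14.9 and 15.0 CPM). The neuron values lay above all others without overlap, and progenitors and collagen VI-positive cells overlapped. Neurons exceeded progenitors 3.26-fold in pooled CPM (95% counting interval 2.83 to 3.77), and edgeR's quasi-likelihood test gave a log2 fold change of 1.88 ± 0.13 (SE; adjusted p = 1.74e-08). Counted by cell, 30.5% and 31.8% of neurons had a HOXB2 UMI against 11.0% and 15.3% of progenitors, and with each cell thinned to 3000 UMIs the shares were 16.3% and 17.7% against 6.25% and 7.79%.

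HOXA2 stood at 31.3 and 31.2 CPM in progenitors, 47.1 and 45.4 in neurons, 11.6 and 5.87 in collagen VI-positive cells and 23.8 and 14.6 in the rest. No class overlapped another, and neurons were the highest and collagen VI-positive cells, with 7 and 6 UMIs, the lowest. Neurons were 1.48-fold above progenitors (counting interval 1.26 to 1.72; edgeR log2 fold change 0.71 ± 0.16, adjusted p = 0.00249). HOXA3, at 20.9 and 18.2 CPM in progenitors and 18.6 and 26.9 CPM in neurons, did not pass the same test (0.40 ± 0.21, edgeR adjusted p = 0.153), and the classes overlapped. The order of both paralogue 2 genes differed between the neural classes: the HOXA2 level was above that of HOXB2 in progenitors and below it in neurons, in both replicates.

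HOXB3 had another order of classes, with collagen VI-positive cells highest: 3.02 and 2.70 CPM in progenitors, 8.80 and 6.25 in neurons, 16.6 and 20.5 in collagen VI-positive cells and 6.05 and 2.79 in the rest. Neurons exceeded progenitors 2.61-fold (counting interval 1.65 to 4.20; edgeR log2 fold change 1.51 ± 0.38, adjusted p = 0.00496), and collagen VI-positive cells exceeded progenitors 6.75-fold (interval 4.00 to 11.4; 3.34 ± 0.44, adjusted p = 1.45e-05). HOXD3 was flat by comparison, at 4.31 and 4.97 CPM in progenitors, 5.42 and 5.16 in neurons, 0 and 3.91 in collagen VI-positive cells and 3.63 and 4.53 in the rest, and edgeR called it in none of the 4 contrasts (adjusted p from 0.522 to 0.847, and 0 contrasts under an unadjusted p of 0.05), nor did DESeq2. HOXD3 shares annotated sequence with HOXD4, and HOXB3 with HOXB4, HOXB5 and HOXB6, in a RefSeq annotation of another assembly (ARS-UCD2.0); where counting could split reads between such neighbours their values are uncertain. The same holds for HOXA5 with HOXA6 and HOXA3, for HOXA3 with HOXA4, for HOXB9 with HOXB8 and for HOXD10 with HOXD11.

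Among paralogues 4 to 9, cluster B and cluster C supplied most of the RNA in collagen VI-positive cells. Summed over these positions, cluster B held 92.8 and 105 CPM, cluster C 53.0 and 107, cluster A 8.28 and 14.7 and cluster D 8.28 and 11.7. The rest was spread more evenly, with cluster A at 9.69 and 12.9 CPM, cluster B at 8.48 and 9.77, cluster C at 7.27 and 13.3 and cluster D at 4.44 and 8.37. In collagen VI-positive cells clusters B and C lay above clusters A and D in both replicates. In the rest, clusters A, B and C overlapped and cluster D lay below both values of clusters A and B.

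HOXC8, known for patterning the thoracic skeleton and brachial motor neurons, was the clearest case. It had 12 and 45 UMIs in collagen VI-positive cells (19.9 and 44.0 CPM), 3 and 6 in the rest (1.21 and 2.09 CPM) and none in progenitors or neurons of either replicate. Collagen VI-positive cells were at least 136-fold above progenitors and at least 77.5-fold above neurons, taking 3 UMIs over both replicates as the floor for the empty class. A UMI of HOXC8 was found in 11.9% and 23.7% of collagen VI-positive cells, and 0 of 766 and 0 of 1039 progenitors allow shares of up to 0.392% and 0.289% of cells with a UMI. Of all HOXC8 UMIs, 82.6% lay in collagen VI-positive cells, which held 6.1% of all UMIs.

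HOXC4, HOXC6 and HOXC9 of the same cluster were also highest in collagen VI-positive cells. HOXC6, a gene of the upper thorax, had 9 and 29 UMIs in collagen VI-positive cells (14.9 and 28.4 CPM) and 2 and 4 in progenitors (0.431 and 0.568 CPM), a ratio of 45.5 (counting interval 19.1 to 132). HOXC4, a neck paralogue, had 7 and 19 UMIs (11.6 and 18.6 CPM) against 1 and 0. HOXC9, which sets thoracic identity in the spinal cord, had 4 and 16 UMIs (6.63 and 15.6 CPM) against 1 and 0. For HOXC4 and HOXC9 the pooled ratios to progenitors, 187 (counting interval 30.7 to 7657) and 144 (23.0 to 5954), rest on that single UMI.

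In cluster B, HOXB8 had 16 and 25 UMIs in collagen VI-positive cells (26.5 and 24.5 CPM) and 2 and 2 in progenitors, a ratio of 73.6 (counting interval 26.7 to 283). HOXB6 reached 16.6 and 28.4 CPM against 0.647 and 0 (ratio 93.4, interval 29.7 to 472), and HOXB4 9.94 and 15.6 CPM against 0.431 and 0.142 (ratio 52.7, interval 15.8 to 275). HOXB9, known in rib and forelimb position, reached 18.2 and 20.5 CPM, and HOXB7 14.9 and 13.7 CPM, each with 1 UMI in progenitors. HOXC8 and HOXC9 differed over 2-fold between the replicates of collagen VI-positive cells, whereas HOXB7, HOXB8 and HOXB9 differed by less; for each of these genes both replicates lay above both of progenitors.

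Cluster A and D genes of these positions were lower. HOXA5, needed for lung and lower neck skeleton, had 3 and 9 UMIs in collagen VI-positive cells (4.97 and 8.80 CPM), 8 and 15 in the rest (3.23 and 5.23 CPM), 3 and 1 in progenitors and none in neurons. HOXA6 had 1 and 3 UMIs in collagen VI-positive cells against 7 and 11 in the rest. HOXD4 had 5 and 12 UMIs in collagen VI-positive cells (8.28 and 11.7 CPM), 6 and 18 in the rest, 1 and 12 in progenitors and none in neurons. The HOXD4 UMIs of progenitors were not spread over the class: 8 of the 13 lay in 2 cells.

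Paralogues 10 to 13 gave 2 and 11 UMIs in progenitors, 1 and 1 in neurons, 1 and 2 in collagen VI-positive cells and 7 and 7 in the rest. HOXA10 had 10 UMIs in all kept cells, HOXA11 7, HOXA13 5, HOXD11 4, HOXC10, HOXC13 and HOXD13 3 each, and HOXC11, HOXC12 and HOXD10 1 each. The remaining low members were HOXA4 with 5 UMIs, HOXC5 with 3, HOXD8 with 2, HOXA9 with 13, HOXA7 and HOXB5 with 15 each and HOXD9 with 18. At this depth no class can be ordered by any of these single genes except HOXB5 and HOXA9, called in the test that applied no filter. HOXA7 and HOXD9 are taken up beside them and were not called.

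**Figure D2:**
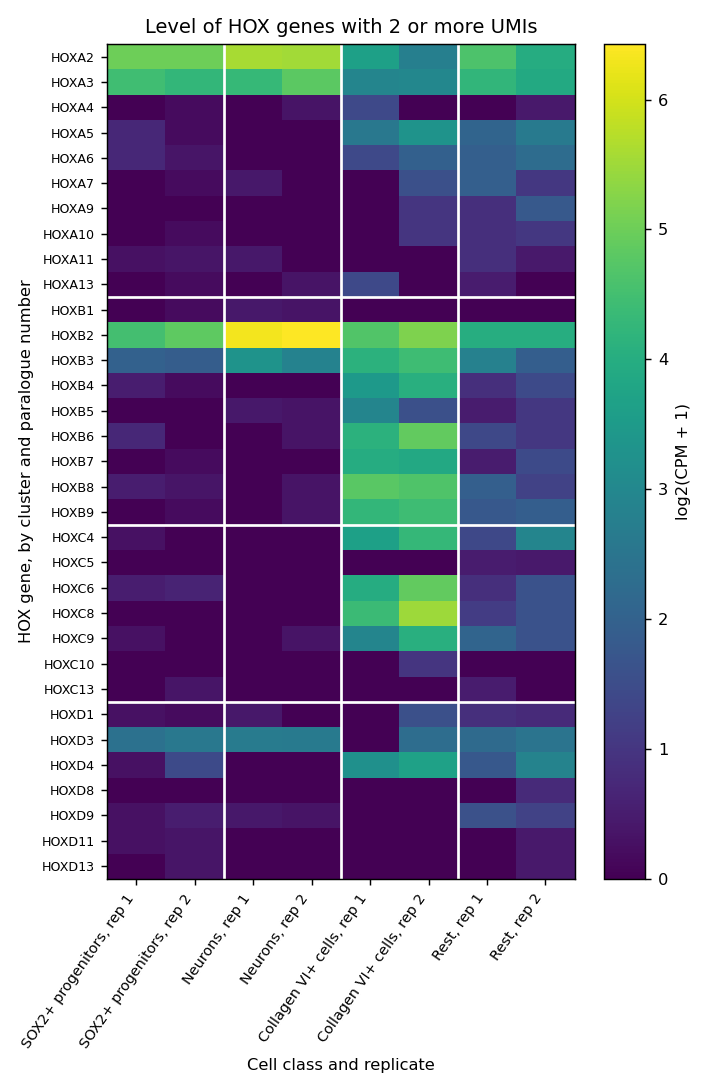
Level of HOX genes with 2 or more UMIs (rows, by cluster and paralogue number) in each class and replicate (columns), as log2(CPM + 1). HOXA2, HOXA3 and HOXB2 are bright in progenitors, neurons and the rest, and HOXB2 is also bright in collagen VI-positive cells. HOXB4 to HOXB9 and HOXC4 to HOXC9 are brightest in collagen VI-positive cells, with HOXB5 and HOXC5 as the dim exceptions in that range.

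Of the 37 genes, 16 passed the filter on low counts and entered the fit on 13031 genes. Members passed mostly through the class where they were high, so the counts of calls describe the 16 and are no support for a difference of the whole family. Between neurons and progenitors edgeR called 4 of 16, HOXA2, HOXB2 and HOXB3 higher in neurons and HOXD4 lower, against 40.0% of all genes tested (20.7% higher and 19.3% lower). The median log2 fold change was -0.24 over the 16 and -0.01 over all genes; over the 8 genes with enough UMIs in either class, with empty classes at their bound, it was 0.37. The HOXD4 call rests on few UMIs: progenitors had 13 UMIs and neurons 0, a level at least 2.46-fold higher in progenitors, and the fitted log2 fold change of -4.69 ± 1.73 (adjusted p = 0.0427) depends on the prior count. It was lost under 6 alternatives: without the replicate block (adjusted p = 0.0718), with DESeq2 (0.0767), a SOX2 gate of 2 UMIs (0.0651), a neuron gate of 4 genes (0.103), ribosome-rich cells, those with at least 10% ribosomal protein counts (0.535), and thinned cells (0.166). The HOXA2 call was lost with thinned cells (0.47, adjusted p = 0.213), and for HOXD4 without replicate 2 the fitted value was -2.42.

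Between collagen VI-positive cells and progenitors 14 of 16 were called, 13 higher and 1 lower, against 41.5% of all genes (21.8% higher and 19.7% lower). The median was 6.02 over the 16 genes, with HOXC8 at its fitted value or at its bound, and -0.10 over all genes. The 13 were HOXB2 and HOXB3 and the 11 tested genes of paralogues 4 to 9, with adjusted p from 1.46e-07 (HOXC8) to 0.0039 (HOXB2) by edgeR's test. HOXA2 was the gene lower in collagen VI-positive cells, by 3.91-fold in pooled CPM (counting interval 2.26 to 7.41) with an edgeR log2 fold change of -1.34 ± 0.36 (adjusted p = 0.00758), and without replicate 2 its value was -0.82. HOXA3 did not pass (-0.92 ± 0.42, adjusted p = 0.0961). HOXB2, the paralogue of HOXA2 in cluster B, was higher by 0.92 ± 0.23 (adjusted p = 0.0039). The HOXB2 call depends on scaling, since its pooled CPM ratio was 1.25 (counting interval 0.907 to 1.68), and with library totals in place of TMM, which lowers the median of all genes by 0.60 here, the log2 fold change was 0.31 (adjusted p = 0.226) while HOXA3 passed at -1.52 (adjusted p = 0.00446). Both paralogue 2 calls were lost with a SOX2 gate of 2 UMIs (edgeR adjusted p of 0.0545 for HOXA2 and 0.144 for HOXB2) and with cells thinned to 3000 UMIs (0.427 and 0.0611). That of HOXA2 was also lost with cells of several gates counted as collagen VI-positive (-0.45, adjusted p = 0.159).

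**Figure D3:**
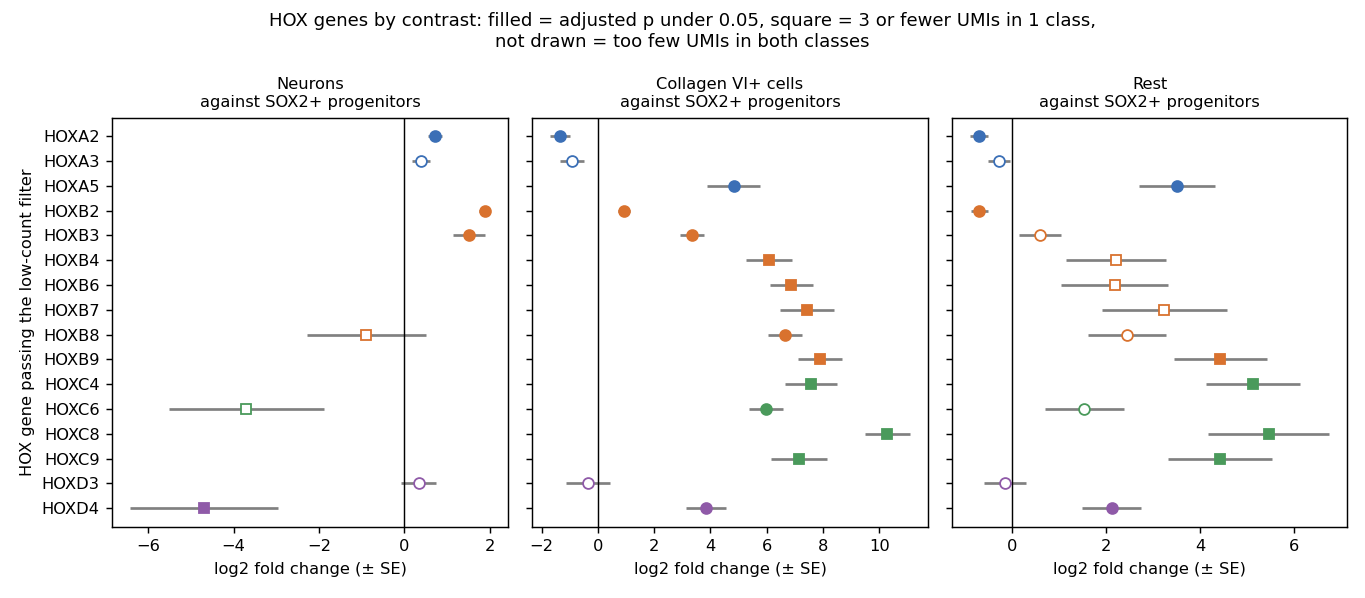
edgeR log2 fold changes (± SE) of HOX genes that passed the low-count filter, in neurons, collagen VI-positive cells and the rest, each against progenitors. Filled symbols have an adjusted p under 0.05, squares mark genes with 3 or fewer UMIs in 1 of the classes, whose fitted value depends on the prior count, and genes with too few UMIs in both classes are not drawn. HOXA2 sits at 0.71, -1.34 and -0.71 in the 3 panels, and HOXC8 sits farthest right in the collagen VI panel.

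Neurons against collagen VI-positive cells gave 15 calls of 16, 3 higher in neurons and 12 lower, against 42.9% of all genes (21.0% higher and 21.9% lower). HOXA2 (2.05 ± 0.34, adjusted p = 0.000139), HOXA3 (1.31 ± 0.42, adjusted p = 0.0183) and HOXB2 (0.96 ± 0.20, adjusted p = 0.000915) were higher in neurons by edgeR's test. The HOXA3 call was lost with DESeq2 (adjusted p = 0.0521), that of HOXB2 with a collagen VI gate of 2 UMIs (0.44, adjusted p = 0.0943), and all 3 with cells thinned to 3000 UMIs (adjusted p = 0.106 to 0.197). HOXB3 was lower in neurons by 2.58-fold (counting interval 1.59 to 4.13; edgeR log2 fold change -1.83 ± 0.41, adjusted p = 0.00168). The other 11 were the tested genes of paralogues 4 to 9, at -6.43 to -10.24. HOXC6 was at least 51.7-fold lower in neurons, HOXC4 at least 35.4-fold, HOXB7 at least 31.3-fold, HOXB4 at least 29.9-fold, HOXD4 at least 23.1-fold and HOXA5 at least 16.3-fold, since neurons had no UMI of these genes. The median was -7.47 over the 16 genes, -4.93 with such genes at their bound, and 0.04 over all genes. This contrast shares its neurons and its collagen VI-positive cells with the others.

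The rest differed from progenitors in 8 of 16 genes, 6 higher and 2 lower, against 18.9% of all genes (8.50% higher and 10.4% lower), with a median of 2.20 over the 16 and 0.01 over all genes. HOXA2 (-0.71 ± 0.19, adjusted p = 0.0169) and HOXB2 (-0.70 ± 0.18, adjusted p = 0.0126) were lower in the rest, where progenitors stood 1.65-fold (counting interval 1.32 to 2.08) and 1.68-fold (1.31 to 2.18) higher in pooled CPM. The 6 higher genes were HOXA5 (3.51 ± 0.80, adjusted p = 0.00657), HOXB9 (4.44 ± 1.00, adjusted p = 0.00521), HOXC4 (5.12 ± 1.00, adjusted p = 0.00234), HOXC8 (5.47 ± 1.29, adjusted p = 0.00899), HOXC9 (4.43 ± 1.12, adjusted p = 0.0108) and HOXD4 (2.12 ± 0.63, adjusted p = 0.0288), all by edgeR's test. Both lower calls and that of HOXD4 were lost with DESeq2 (adjusted p of 0.106, 0.0562 and 0.0579 for HOXA2, HOXB2 and HOXD4). The HOXA5 call was lost with a SOX2 gate of 2 UMIs (adjusted p = 0.0515), and with cells thinned to 3000 UMIs the fitted HOXC8 value was 0.13 (adjusted p = 1.0). Thinning also ended the calls of HOXA2 (adjusted p = 0.187) and HOXD4 (0.244), that of HOXB2 was lost in ribosome-rich cells (-0.26, adjusted p = 0.589), and that of HOXD4 without the replicate block (0.0812) and with the SOX2 gate of 2 UMIs (0.0853). Single libraries moved the size of several: without replicate 2 the log2 fold change was -0.37 for HOXA2, 2.26 for HOXA5, 2.67 for HOXC4 and 3.24 for HOXD4.

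Without a filter, all 37 genes stood in a fit of 17315 genes. It called 4 HOX genes between neurons and progenitors (31.4% of all genes were called), 15 between collagen VI-positive cells and progenitors (33.2%), 17 between neurons and collagen VI-positive cells (33.5%) and 11 between the rest and progenitors (16.0%). The genes called beyond the 16 were HOXB5, with 6 UMIs in collagen VI-positive cells against 0 in progenitors and 2 in neurons, HOXA6, with 18 UMIs in the rest against 5 in progenitors (7.87-fold, counting interval 2.81 to 27.1), and HOXA9, with 9 UMIs in the rest against 0 in progenitors (at least 6.56-fold). HOXA6 was also called between neurons and collagen VI-positive cells, from 0 against 4 UMIs. Among the 16, HOXB8 was called in the rest against progenitors only without the filter (edgeR adjusted p = 0.0490 in place of 0.0531). HOXA7 had 10 UMIs in the rest against 1 in progenitors (21.9-fold, interval 3.11 to 948) and HOXD9 had 9 against 4 (4.92-fold, interval 1.37 to 21.8), and neither was called.

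Per cell, 36.0% and 40.3% of progenitors, 54.1% and 54.7% of neurons, 59.7% and 69.3% of collagen VI-positive cells and 23.6% and 18.6% of the rest had a HOX UMI. Thinned to 3000 UMIs per cell, which left out 142 and 153 progenitors, 48 and 45 neurons, 12 and 20 collagen VI-positive cells and 320 and 360 cells of the rest, the shares were 22.1% and 23.0%, 31.5% and 34.9%, 41.8% and 47.9%, and 20.8% and 14.0%. For background from free RNA, 32 cells with 100 or more UMIs of erythroid genes, at a median of 23743 UMIs, held 1 HOX UMI among them, so 3.13% of those cells had any. The erythroid cells were deeper than every class and had the lowest share.

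A UMI of paralogues 4 to 9 was found in 10 and 12 progenitors (1.31% and 1.15%), 3 and 7 neurons (0.732% and 1.47%), 33 and 71 collagen VI-positive cells and 26 and 33 cells of the rest (4.15% and 4.85%). The collagen VI shares were 49.3% (exact 95% interval 36.8 to 61.8) and 62.3% (52.7 to 71.2) of cells, intervals that cover counting error only. Thinned, they were 30.9% (19.1 to 44.8) and 40.4% (30.4 to 51.0), against 0.481% and 1.02% in progenitors, 0.276% and 0.233% in neurons and 3.58% and 4.67% in the rest. The progenitor and neuron shares lay below the erythroid share (1 of 32 cells), those of the rest lay close to it, and those of collagen VI-positive cells lay above it at both depths. The erythroid share rests on 1 cell and on full depth, at a median of 23743 UMIs. Detection rises with depth, so this order cannot show whether the lower shares are background. As a level, the erythroid cells held 1.29 CPM of all HOX genes, below the level of paralogues 4 to 9 alone in progenitors (4.12 CPM in replicate 2). The share of free RNA in these counts was not tested.

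**Figure D4:**
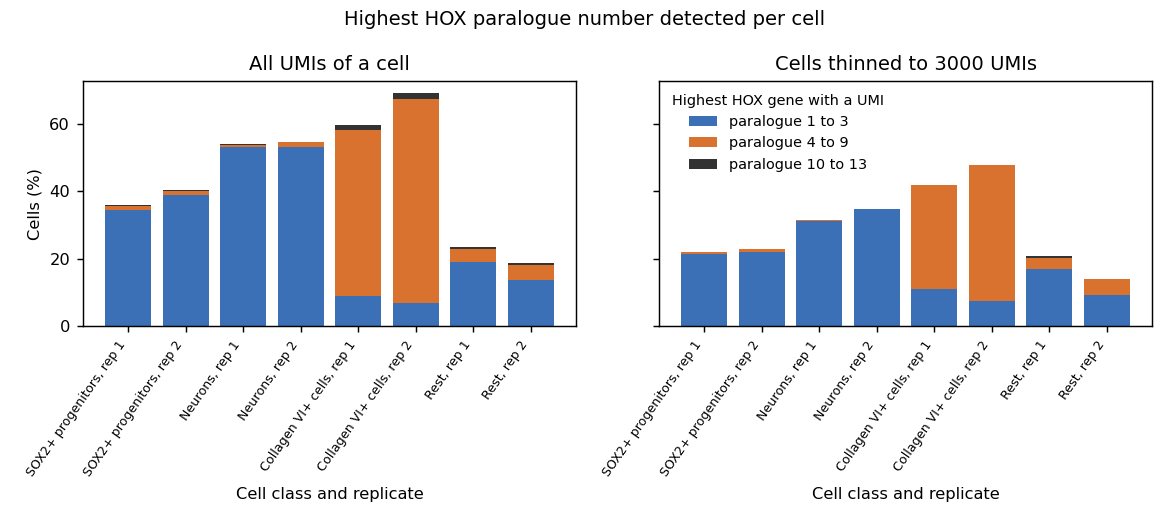
Share of cells (%) by the highest HOX paralogue number with a UMI, for each class and replicate, with all UMIs of a cell (left) and with cells thinned to 3000 UMIs (right). Blue marks cells that stop at paralogues 1 to 3, orange those that reach 4 to 9 and black those with any of 10 to 13. Orange leads only in collagen VI-positive cells, at either depth.

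The highest paralogue in a cell followed the same division. In neurons it was paralogue 2 in 145 and 147 cells and paralogue 3 in 73 and 105 cells, and in progenitors paralogue 2 in 151 and 256 cells and paralogue 3 in 113 and 148. In collagen VI-positive cells the most frequent was paralogue 9, in 13 and 25 cells, followed by paralogue 8 in 9 and 22 and paralogue 6 in 5 and 10. Paralogues 2 and 3 were the highest in 3 and 5 and in 3 and 3 of these cells. A gene of paralogues 1 to 3 was found together with one of 4 to 9 in 16 and 37 collagen VI-positive cells, and genes of 4 to 9 from more than 1 cluster in 15 and 39 cells (22.4% and 34.2% of the class).

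Collagen VI-positive cells with and without UMIs of paralogues 4 to 9 differed in depth and content. Those with them had median depths of 12193 and 12263 UMIs, 24.8% and 26.7% ribosomal protein counts and mesenchyme list sums of 28719 and 31682 CPM. Those without had 4654.5 and 4042 UMIs, 3.69% and 10.6%, and 3917 and 12303 CPM. The endoderm list, mainly APOA1, moved the same way (14880 and 16244 CPM against 1820 and 4845). The part of depth, RNA content and APOA1 RNA in the HOX detection was not tested. Erythroid RNA was unequal between replicates of the class (51977 and 439 CPM), and without cells of 100 or more erythroid UMIs every HOX contrast kept its direction and its side of the threshold except HOXB8 in the rest, which passed there (adjusted p = 0.0366 in place of 0.0531).

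In the rest, few cells carried most of the higher paralogues. The 10 and 16 cells with at least 2 genes of paralogues 4 to 9 held 78.4% and 84.3% of the class's UMIs of those positions, and a single cell held 15 UMIs (20.3%) in replicate 1 and 28 (22.0%) in replicate 2. These 26 cells had HOXC4 in 11 cells (23 UMIs), HOXA5 in 14 (20 UMIs), HOXD4 in 12 (19 UMIs) and HOXA6 in 7 (17 UMIs). Cluster A supplied 34.5% and 29.9% of their UMIs of paralogues 4 to 9, against 3.53% and 6.33% in the corresponding 21 and 52 collagen VI-positive cells, where cluster B supplied 57.6% and 42.1% and cluster C 32.9% and 47.5%. Cluster shares thus differed in direction in both replicates, without a test. In the rest, cells with any UMI of paralogues 4 to 9 held 10773 and 4502 CPM of a trophoblast list against 527 and 369 CPM in the other cells, and 355 and 137 CPM of a lateral plate mesoderm list against 19.2 and 25.2 CPM. Over the whole rest that list was mostly HAND1 (35.9 and 24.8 CPM of 44.4 and 34.9 CPM), so its name gives no cell identity. The lateral plate list was not particular to the rest. In collagen VI-positive cells it stood at 351 and 380 CPM with such UMIs against 56.4 and 152 CPM without. The 26 cells of the rest with at least 2 such genes are only a part of the cells with any. Among these 26, the lateral plate list had 13 UMIs of HAND1, 1 each of HAND2, FOXF1 and GATA4, and 0 of TBX5. Of the trophoblast list, PAG2 had 369 UMIs in the 26 and PAG8 148, each in 1 cell. How the trophoblast RNA was spread over the others was not examined. What these RNAs contribute to the HOX counts was not tested, and without trophoblast cells no HOX call changed in the 4 contrasts.

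Co-detection was read within a class, since detection rises with depth. In neurons 44 of 102 HOXA2 cells in replicate 1 (43.1%) and 54 of 122 in replicate 2 (44.3%) also had HOXB2, which was in 31.2% of all neurons. Thinned to 3000 UMIs the shares were 15.8% and 23.6% (6 of 38 and 13 of 55 cells) against 16.3% and 17.7% of all thinned neurons, so no excess was seen in replicate 1 at equal depth. HOXB3 cells of neurons had HOXB2 in 24 of 42 cases (57.1%), with replicates pooled and depth not equalised. In progenitors 49 of 306 HOXA2 cells (16.0%) had HOXB2, against 13.5% of all progenitors. HOXA2 was in 40 of 195 HOXA3 cells of progenitors (20.5%) against 17.0% of the class, and in neurons in 40 of 119 (33.6%) against 25.3%.

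Genes next to each other in a cluster were found together more often than their shares in the class alone would give in all 4 classes at full depth. Several neighbours, such as HOXA5 and HOXA6, share annotated sequence in the RefSeq annotation named above, and its part in co-detection was not tested. Over neighbouring pairs, a cell with 1 gene had the other in 22.8% and 23.9% of cases in collagen VI-positive cells (8.98% and 10.6% of all cells of the class, weighted alike), 9.42% and 9.38% in neurons (5.60% and 6.81%), 6.12% and 6.30% in progenitors (4.52% and 4.27%) and 10.3% and 12.5% in the rest (2.06% and 1.43%). Within collagen VI-positive cells the share was 19.6% and 17.4% for genes 2 to 3 steps apart (7.77% and 9.54% of the class) and 17.2% and 10.2% for genes 4 or more steps apart (6.76% and 7.82%). In both replicates the share of the class fell along with it. For the same paralogue of another cluster it was 13.7% and 13.2% (5.13% and 7.77%). Thinned, neighbouring pairs were found in 1 to 7 cells per class and replicate. Their shares were 3.87% and 3.05% in progenitors (2.67% and 2.02% of the class), 3.77% and 2.81% in neurons (2.67% and 3.09%), 3.39% and 9.46% in collagen VI-positive cells (2.16% and 4.27%) and 4.94% and 4.58% in the rest (1.87% and 0.99%). The share lay above that of the class in both replicates except in neurons, where it did so in replicate 1. Among pairs of 1 cluster at positions 4 to 9, collagen VI-positive cells had both genes 0 times in replicate 1 and 9 times in replicate 2 (7.17% against 4.16% of the class). Whether co-detection falls with distance at equal depth was not detectable.

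Single pairs show which genes met. In collagen VI-positive cells, with replicates pooled, 16 of 35 HOXB6 cells had HOXC8 (45.7% against 19.3% of the class), 15 of 32 HOXC6 cells had HOXC8 (46.9%), and 11 of 23 HOXB7 cells had HOXB6 (47.8% against 19.3%). Of 15 HOXC9 cells, 9 had HOXB8 (60.0% against 18.2%). HOXA5 went with other genes: of its 8 cells, 5 had HOXB4, 5 had HOXC4 and 0 had HOXB8, and of 5 HOXD4 cells 4 had HOXA3 and 0 had HOXB8. In the rest, 8 of 11 HOXC4 cells had HOXA5 (72.7% against 1.3% of the class), 7 of 17 HOXD4 cells had it, and 6 of 8 HOXA6 cells. HOXA5 and HOXA6 are neighbours that share annotated sequence, as stated above. The pairs given here were picked for their values and carry no test.

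**Figure D5:**
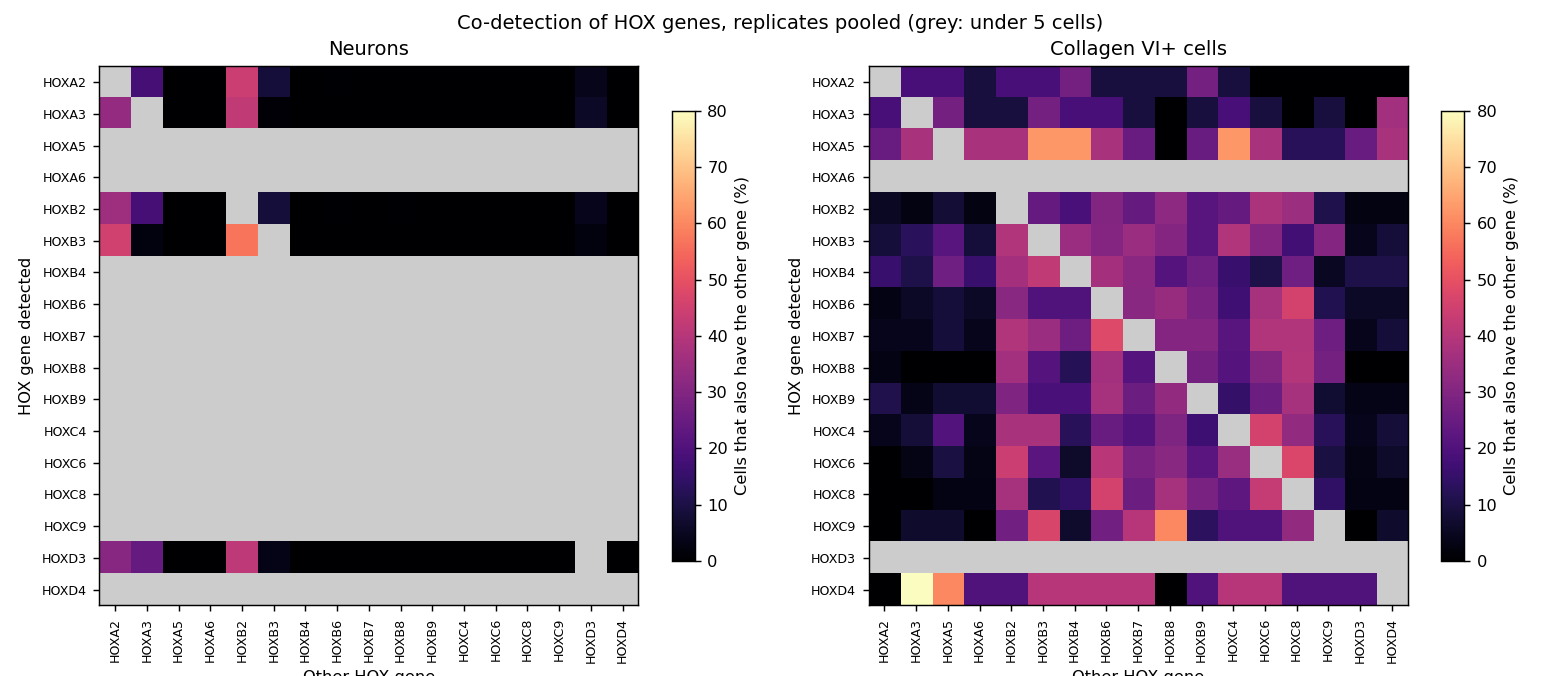
Share of cells (%) with a UMI of the gene in the row that also had a UMI of the gene in the column, in neurons and in collagen VI-positive cells, at full depth with replicates pooled. Grey marks the gene itself and genes found in under 5 cells. Neurons show HOXA2, HOXA3, HOXB2, HOXB3 and HOXD3 alone, and collagen VI-positive cells show a field of pairs between clusters B and C, with HOXA5 and HOXD4 rows that lack HOXB8.

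Genes that act with or on HOX genes were counted from lists in the same fit. All 9 HOX cofactor genes, homeodomain partners that bind DNA together with HOX proteins, were tested, and in neurons against progenitors 6 were higher and 0 lower (20.7% and 19.3% of all genes), with a list median of 0.70 against -0.01 for all genes. MEIS2 stood at 1111 and 874 CPM in neurons against 356 and 316 in progenitors (edgeR log2 fold change 1.71 ± 0.11, adjusted p = 1.07e-08). MEIS1 rose by 1.24 ± 0.09 (adjusted p = 1.18e-08), MEIS3 by 0.88 ± 0.16 (adjusted p = 0.000489) and PBX3 by 0.86 ± 0.09 (adjusted p = 1.38e-06). In collagen VI-positive cells against progenitors 3 cofactors were higher and 3 lower (21.8% and 19.7% of all genes), with MEIS1 lower at -1.07 ± 0.12 (edgeR adjusted p = 3.59e-06), while in the rest 4 were higher and 0 lower (8.50% and 10.4% of all genes).

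Of 20 genes that make, carry, clear or read retinoic acid, a known inducer of HOX genes, 11 were tested. In neurons 3 were higher than in progenitors and 1 lower, 4 of 11 beside 40.0% of all genes: the binding protein CRABP1 reached 3298 and 7375 CPM against 450.5 and 485.2 CPM (edgeR log2 fold change 3.61 ± 0.43, adjusted p = 0.00683), and the synthesis enzyme RDH10 fell by 1.20 ± 0.27 on the log2 scale (adjusted p = 0.00236). In collagen VI-positive cells 4 were higher than in progenitors and 2 lower (21.8% and 19.7% of all genes). DHRS3, a reductase that holds retinoic acid down, stood at 84.5 and 152.6 CPM against 3.67 and 3.55 CPM (5.67 ± 0.28, edgeR adjusted p = 1.92e-10). ALDH1A2, which makes retinoic acid in embryos, had 9.94 and 2.93 CPM against 2.16 and 1.42 CPM (2.29 ± 0.87, adjusted p = 0.0466). The list median in that contrast was 0.79 against -0.10 for all genes.

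Regulators of hindbrain and axial position were mostly too low to test: 12 of the 13 listed genes were in the table and 4 were tested. CDX4 and TBXT, genes of the tail bud, had 0 CPM in each of the 4 classes in both replicates. EPHA4, an ephrin receptor of hindbrain segments, was lower in neurons than in progenitors (-0.60 ± 0.15, edgeR adjusted p = 0.00579). Of 15 genes known from the patterning of the forebrain and midbrain, 7 were tested, and 5 were higher and 1 lower in neurons than in progenitors (20.7% and 19.3% of all genes). Several of them, among them LHX9, LHX2, PAX2 and PAX5, are also known in interneurons of the hindbrain and spinal cord. LHX9 stood at 20.3 and 17.1 CPM in neurons against 0.216 and 0.284 CPM in progenitors (6.10 ± 0.52, edgeR adjusted p = 3.03e-07). OTX2, which marks forebrain and midbrain, was at 18.8 and 16.8 CPM in progenitors and 3.72 and 5.71 CPM in neurons.

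The Polycomb genes, whose complexes keep HOX genes silent, were all tested (16), and 1 was higher and 7 lower in collagen VI-positive cells than in progenitors, with a list median of -0.49 against -0.10 (21.8% and 19.7% of all genes were higher and lower). CBX8 (-1.70 ± 0.65, adjusted p = 0.0465), EZH1 (-1.40 ± 0.40, adjusted p = 0.0103) and BMI1 (-0.94 ± 0.37, adjusted p = 0.0492) were lower and PCGF2 (1.03 ± 0.20, adjusted p = 0.000745) higher by edgeR's test. In neurons against progenitors 4 Polycomb genes were higher and 3 lower, near the shares of all genes (20.7% and 19.3%). Of the 12 Trithorax and H3K27 demethylase genes, which oppose Polycomb, 0 were higher and 2 lower in collagen VI-positive cells (41.5% of all genes were called), and 3 were higher and 0 lower in neurons (40.0%), KDM6B by 0.63 ± 0.20 (edgeR adjusted p = 0.0200).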

How the data were processed

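The authors deposited unnormalized UMI counts, 1 row a gene and 1 column a cell. Per the submitters' processing notes they used Cell Ranger, bosTau9, R 4.1.2 and Seurat 4.3.0; Cell Ranger version, annotation and strand setting are unstated there. HOX members and gene lists were chosen with earlier results of these data known. Cells needed 500 detected genes and under 20% mitochondrial counts; Scrublet (expected rate 0.06) called 0 and 3 doublets, which were removed, so doublets were hardly assessed. The libraries differed (chi-square 14.7 per degree of freedom over 15260 genes) and shared 6 barcodes. Counts were summed per class and replicate (8 sums) and fitted with edgeR 4.0.16 in R 4.3.3 (TMM, filterByExpr, robust quasi-likelihood test, replicate as a block since classes of 1 number share a suspension; 3 residual degrees of freedom, median prior 12.5), with Benjamini-Hochberg adjustment over 13031 genes at 0.05. SE is the log2 fold change over the root of F. CPM are counts per 1000000 of a class sum. Ratio intervals and exact (Clopper-Pearson) intervals are 95% and cover counting error; an empty class takes a floor of 3 UMIs over both replicates. HOX genes with 20 or more UMIs, and every called one, were described; other lists name up to 4 called genes of largest change per contrast, of which a part is printed, and genes at 0 or below the rule were named after seeing values. Cells were thinned to 3000 UMIs, with shallower cells left out. Library totals, and leaving out erythroid (100 list UMIs) or trophoblast (10 list UMIs) cells, were alternatives chosen after seeing the data. The script was tested on simulated data. Python 3.11.15, numpy 2.4.6, scipy 1.17.1, pandas 2.3.3, scanpy 1.11.5 and DESeq2 1.42.0 were used. No per-sample column was left unused. RefSeq symbols (ARS-UCD2.0, another assembly) matched all 37 genes and gave overlaps only. Some items are not reported here.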

Additional observations from a re-analysis of the deposited data

How the results depend on the processing

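No called HOX log2 fold change, of 64 computed (16 genes in 4 contrasts), changed sign under the alternatives run. Cells thinned to 3000 UMIs, where 6 HOX genes passed the filter, gave 1 call between neurons and progenitors, 3 between collagen VI-positive cells and progenitors, 3 between neurons and collagen VI-positive cells and 1 between the rest and progenitors; fewer genes and UMIs enter there. DESeq2 gave 5 calls between the rest and progenitors in place of 8. Without the replicate block the counts were 14 for collagen VI-positive cells and 3 for neurons against progenitors, 15 for neurons against collagen VI-positive cells and 7 for the rest, so the pairing changed the calls of HOXD4 only. Counts of calls could not be given without 1 replicate, since no residual degrees of freedom remain. The share of HOX UMIs from paralogues 4 to 13 was 5.77% in progenitors, and 4.33% with a SOX2 gate of 2 UMIs, 4.82% with a neuron gate of 4 genes and 4.33% in ribosome-rich cells (at least 10% ribosomal protein counts). In neurons it was 1.06%, and 1.99% with a collagen VI gate of 2 UMIs and 0.563% thinned. In collagen VI-positive cells it was 74.8%, and 64.3% with cells of several gates added, 78.7% in ribosome-rich cells and 68.6% thinned; in the rest it was 40.1%, and 29.4% with the SOX2 gate of 2 UMIs and 62.3% in ribosome-rich cells. The cause of these shifts was not tested. Leaving out each replicate gave ranges of 5.28% to 6.27%, 0.844% to 1.27%, 73.3% to 76.3% and 32.8% to 47.4% for progenitors, neurons, collagen VI-positive cells and the rest. Co-detection within 1 cluster at positions 4 to 9 in collagen VI-positive cells was 3.59% thinned (0% to 7.17% by replicate) and 22.4% at full depth, and HOXB2 in HOXA2 neurons 19.7% thinned (15.8% to 23.6%) and 43.7% at full depth, a difference in depth by construction. HOXA2 in collagen VI-positive cells against progenitors lost its call with a SOX2 gate of 2 UMIs (-0.72, adjusted p = 0.0545) and with cells of several gates added (-0.45, adjusted p = 0.159), HOXB2 with the SOX2 gate (0.43, adjusted p = 0.144), and HOXB3 in neurons against collagen VI-positive cells with cells of several gates added (adjusted p = 0.115). Library totals left 20.5% of all calls higher in collagen VI-positive cells than in progenitors, against 52.4% with TMM; the split was 35.2% against 51.8% in neurons against progenitors, 73.8% against 49.0% in neurons against collagen VI-positive cells and 43.1% against 44.9% in the rest, and the median of all genes moved by -0.60, -0.15, 0.45 and -0.01 in the order collagen VI-positive cells and neurons against progenitors, neurons against collagen VI-positive cells, and the rest. Depth limits the 20 genes under 20 UMIs and the thinned pairs.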

Other observations

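Trophoblast-rich cells, 26 cells with 10 or more UMIs of pregnancy-associated glycoproteins, prolactin-related proteins and other trophoblast genes, held 19 HOX UMIs, and 17 of these were of paralogues 4 and up. HOXB8 had 7 UMIs there, HOXC9 4 and HOXB7 3, whereas HOXA2 and HOXA3 had 0 and HOXB2 had 2. Their median depth was 10769 UMIs, and 12 of the 26 cells had a HOX UMI. The 32 erythroid cells, deeper at a median of 23743 UMIs, held 1 HOX UMI, of HOXA5. The limit of 10 UMIs was chosen after seeing the data, and the 2 kinds of cell were not tested against each other.

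The 4 progenitors with 2 or more genes of paralogues 4 to 9 had 0 UMIs of PAX6 and of SOX1. Both are transcription factors of neural progenitors outside the gate. NES, of the same marker list, had 6 UMIs in 2 of the 4 cells. In so few cells, 0 UMIs cannot show that a gene is absent. The trophoblast gene PRP1 had 89 UMIs in 2 of the 4 cells. A single one of these 4 progenitors held 9 of the 19 UMIs of paralogues 4 to 9 in replicate 1 (47.4%), and another 13 of 29 in replicate 2 (44.8%). Neurons had 10 cells with such a UMI, and 0 neurons had more than 1 gene of paralogues 4 to 9.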
